A study of Mus musculus with 4 samples.

Results

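Ccl2, Ccl3, Ccl4, Ccl5, Ccl6, Ccl9, Cxcl2, Cxcl10, Cxcl16 and Pf4 encode 10 chemokine ligands that blood monocytes may make. They were taken from the deposited expression table by exact gene symbol, as 10 of its 23995 symbols. Chemokines are small secreted proteins that bind G protein-coupled receptors on leukocytes and direct their migration along a gradient. CC chemokines such as CCL2 mainly attract monocytes and T cells, whereas CXC chemokines include neutrophil attractants such as CXCL2 and interferon-inducible T cell attractants such as CXCL10. In blood, Ly6Chi monocytes are the classical subset that enters inflamed tissue, and Ly6Clo monocytes are the nonclassical subset that patrols the vessel wall.

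RNA-seq was performed on mouse blood Ly6Clo and Ly6Chi monocytes sorted by flow cytometry, in 4 libraries. The RBP-J-deficient libraries came from RBP-Jfl/fl Lyz2-Cre mice, in which Cre recombinase removes Rbpj, the gene of the transcription factor through which Notch receptors act. The control libraries are titled WT and carry the genotype label Lyz2-Cre, and the study's methods give them as Rbpj+/+ Lyz2 cre/cre and the deficient mice as Rbpj fl/fl Lyz2 cre/cre. Cre under the myeloid gene Lyz2 was thus shared by all 4 groups, and the study describes the deletion as specific to myeloid cells. The methods describe the mice as matched for age and gender, with 1 age range for all experiments. The sources used here do not give the age or sex for each library or the number of mice behind it. Each genotype and subset had 1 library, so the differences below have no replicate check and no test was made. Because RNA came from sorted populations, fewer cells of a type and less RNA per cell cannot be told apart.

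Levels are FPKM, in which fragments are divided by transcript length and scaled for the size of a library, and which allow genes of different length to be compared. Differences are log2 ratios of (FPKM + 1), which understate the change of genes with low values. A gene was counted as higher or lower at a difference of at least 2-fold on the (FPKM + 1) scale, among the 10240 genes that reached an FPKM of 1 in any library. All 10 ligand genes were among these 10240, although Cxcl2 passed only through RBP-J-deficient Ly6Clo monocytes. The FPKM of Rbpj was 8.30 in the control Ly6Clo library and 2.43 in the RBP-J-deficient one, and 14.4 and 2.85 in the Ly6Chi libraries. Csf1r, which encodes the M-CSF receptor of monocytes, had an FPKM between 157.8 and 406.7 in the 4 libraries. Of 12 Ly6Chi marker genes, 12 were lower in Ly6Clo than in Ly6Chi monocytes in control mice and 9 in RBP-J-deficient mice. Of 14 Ly6Clo marker genes, 13 were higher in control Ly6Clo monocytes and only 5 in the RBP-J-deficient ones. Actb, an actin gene that every cell uses, stands at 0 in the 2 libraries of RBP-J-deficient mice, so a value of 0 was not taken as absence. The depth of the libraries is unknown.

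The ligand genes lie in a few clusters. On chromosome 11 of GRCm38, Ccl5, Ccl9, Ccl6, Ccl3 and Ccl4 follow each other within 138.9 kb (chr11:83525778-83664683), and Ccl9 and Ccl6 are only 9.25 kb apart. Ccl2 (chr11:82035571-82037453) and Cxcl16 (chr11:70453983-70459984) lie elsewhere on that chromosome. On chromosome 5, Pf4 and Cxcl2 lie within 133.5 kb (chr5:90772435-90905938), and Cxcl10 is at chr5:92346638-92348889. Exons of Cxcl10 overlap those of Art3, and exons of Cxcl16 overlap those of Zmynd15, each on the opposite strand. Whether the counting used strand is not given in the sources used here, so reads of these overlapping exons cannot be told apart.

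Promoter sequences of 3 genes are shown, because they hold letters known to be bound by RBP-J, by NF-kappaB or by interferon-activated factors. The RefSeq table of GRCm38.p6 held promoters of 6 of the 10 genes, namely Ccl3, Ccl6, Ccl9, Cxcl2, Cxcl10 and Pf4. Each window ran from 250 bases before the transcription start to 50 bases after it, and motifs were searched on both strands. Promoters are printed 5′ to 3′ on the gene's strand, ending at the base before the start.

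Cxcl10 promoter (GRCm38.p6, chr5:92348890-92349139, minus strand), with an interferon-stimulated response element, NF-kappaB motifs and an AP-1 motif in capitals:
Cxcl10: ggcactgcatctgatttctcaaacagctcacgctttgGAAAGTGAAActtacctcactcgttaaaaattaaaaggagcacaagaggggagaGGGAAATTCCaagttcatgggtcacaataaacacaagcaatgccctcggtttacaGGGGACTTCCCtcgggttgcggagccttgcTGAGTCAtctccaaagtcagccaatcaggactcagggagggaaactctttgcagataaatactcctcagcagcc
Cxcl2 promoter (GRCm38.p6, chr5:90903649-90903898, plus strand), with its NF-kappaB motif in capitals:
Cxcl2: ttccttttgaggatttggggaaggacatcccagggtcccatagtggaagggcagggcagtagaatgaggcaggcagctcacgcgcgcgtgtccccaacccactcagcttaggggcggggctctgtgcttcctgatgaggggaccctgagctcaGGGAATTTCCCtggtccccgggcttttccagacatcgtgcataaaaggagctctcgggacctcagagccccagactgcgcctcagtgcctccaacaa
Ccl9 start region (GRCm38.p6, chr11:83578624-83578653, minus strand, 30 bases), with the RBP-J motif, read on the opposite strand, in capitals:
Ccl9: tttgccctccacTTCCCACtgcacactgtt

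The RBP-J letters searched were GTGGGAA, which 6.38% of the 32851 promoters searched held. Promoters of a chromosome that holds no ligand gene, and windows of another length, were left out of all shares given here. Of the 6 ligand promoters only that of Ccl9 held them, from -5 to 2 around the start. The interferon-stimulated response element, searched as GAAA and GAAA with 2 bases between them, was in 3.44% of promoters and in that of Cxcl10, from -213 to -204. The NF-kappaB motif was in 8.46% of promoters and in 3 of the 6, those of Ccl9, Cxcl2 and Cxcl10. In Cxcl10 it lay from -159 to -150 and, in overlapping matches, from -104 to -94. In Cxcl2 it lay from -97 to -87, where matches on the 2 strands overlap. The AP-1 letters TGANTCA were in 7.81% of promoters and in those of Ccl9 and Cxcl10. TATAAA was in 13.6% of promoters and, among the 6, in that of Ccl9. The C/EBP letters TTGCGCAA were in 0.183% of promoters and in none of the 6. A match is a description of the sequence, and a missing match says only that these letters are not in this window.

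The ligand transcripts were dominated by Ccl6, a CC chemokine that binds CCR1. Its FPKM was 845.8 in control Ly6Clo, 1729 in RBP-J-deficient Ly6Clo, 1542 in control Ly6Chi and 1480 in RBP-J-deficient Ly6Chi monocytes. It stood at rank 107, 60, 47 and 59 of the expressed genes in the same libraries, and made up 84.0%, 89.2%, 73.3% and 77.4% of the summed FPKM of the 10 ligands. The control Ly6Clo library was thus the low one, and the other 3 lay close together.

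Ccl9, also a CCR1 ligand, was next in every library, with an FPKM of 87.2 in control Ly6Clo, 132.1 in RBP-J-deficient Ly6Clo, 354.1 in control Ly6Chi and 259.2 in RBP-J-deficient Ly6Chi monocytes. Pf4, which encodes platelet factor 4 (CXCL4), was the third in every library, with 56.5, 51.4, 155.9 and 120.4 in the same order. Both genes had their 2 lower values in the Ly6Clo libraries. Ccl6, Ccl9 and Pf4 together held between 97.2% and 98.6% of the summed ligand FPKM.

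The other 7 ligand genes had an FPKM of at most 17.2. Ccl3, which encodes MIP-1alpha, a ligand of CCR1, had an FPKM of 12.3 in control Ly6Clo, 15.0 in RBP-J-deficient Ly6Clo, 6.68 in control Ly6Chi and 7.45 in RBP-J-deficient Ly6Chi monocytes. Its neighbour Ccl4, which encodes MIP-1beta, had 1.46, 2.89, 3.09 and 1.76 in the same order. The ratio of Ccl3 to Ccl4 was 8.48, 5.19, 2.16 and 4.23. Ccl3 was therefore the higher of this pair in all 4 libraries, and it was the fourth most abundant ligand in both Ly6Clo libraries. In both Ly6Chi libraries Ccl2 and Cxcl10 were above it.

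**Figure D1:**
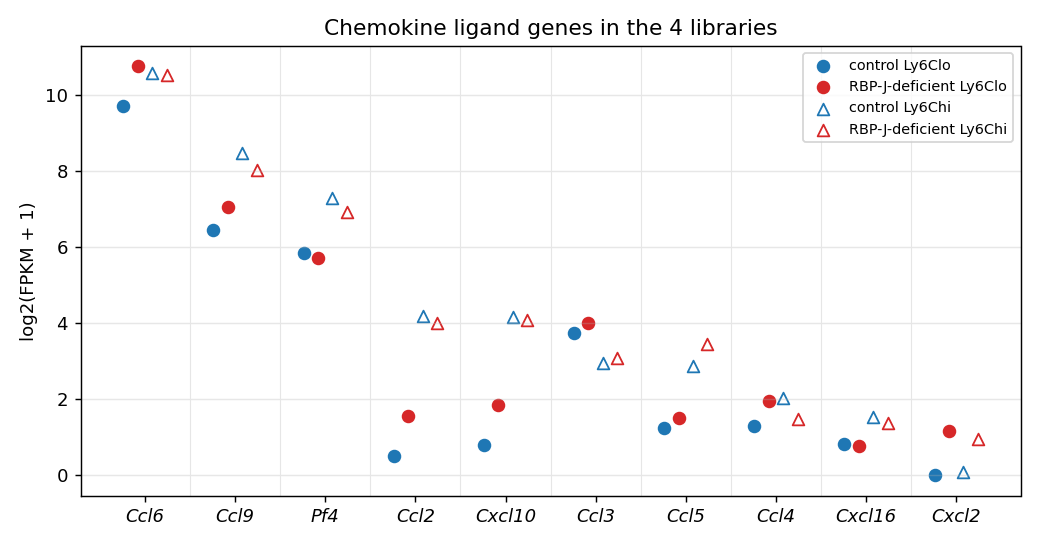
Level of each ligand gene in the 4 libraries, as log2(FPKM + 1) on the vertical axis, with genes ordered by their highest level. Filled circles are Ly6Clo and open triangles Ly6Chi monocytes, in blue for control and red for RBP-J-deficient mice. Ccl6, Ccl9 and Pf4 lie above the other 7 genes, and Ccl2 and Cxcl10 are low in both Ly6Clo libraries.

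Ly6Clo and Ly6Chi monocytes were compared within each genotype. In control mice, Ccl2, Ccl5, Ccl9, Cxcl10 and Pf4 were at least 2-fold lower in Ly6Clo monocytes, which is 5 of the 10 ligand genes, against 7.75% of all genes tested. None of the 10 was at least 2-fold higher, against 5.21% of all genes. The median log2 ratio was -1.16 over the ligands and 0 over all genes. In RBP-J-deficient mice 4 ligand genes were lower (Ccl2, Ccl5, Cxcl10 and Pf4), against 10.6% of all genes, and none was higher, against 8.41%. The median was -0.78, beside 0.02 over all genes. Rescaling to TPM, which set every library to the same sum, moved the split of all genes from 861 higher and 1084 lower to 645 and 1583, shifted the median of all genes by -0.18 and gave 5 lower ligand genes, with Ccl9 added.

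The widest subset differences were those of Ccl2 and Cxcl10. Ccl2 encodes MCP-1, the main ligand of CCR2, the receptor by which Ly6Chi monocytes leave the bone marrow. Its FPKM was 0.421 in control Ly6Clo, 1.94 in RBP-J-deficient Ly6Clo, 17.2 in control Ly6Chi and 15.0 in RBP-J-deficient Ly6Chi monocytes. Both Ly6Chi values lay well above both Ly6Clo values, with log2 ratios of Ly6Clo over Ly6Chi of -3.68 in control mice and -2.45 in deficient mice. Cxcl10 encodes IP-10, an interferon-induced ligand of CXCR3. Its FPKM was 0.723, 2.57, 16.8 and 16.1 in the same order, with log2 ratios of -3.37 and -2.26. The control Ly6Clo library was thus the lowest of the 4 for both genes.

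Ccl5, which encodes RANTES, a ligand of CCR1 and CCR3 that T and NK cells also make in quantity, had an FPKM of 1.37 in control Ly6Clo, 1.86 in RBP-J-deficient Ly6Clo, 6.32 in control Ly6Chi and 9.90 in RBP-J-deficient Ly6Chi monocytes. Its log2 ratio of Ly6Clo over Ly6Chi was -1.63 in control mice and -1.93 in deficient mice, so that it was low in Ly6Clo monocytes of both genotypes. Of 20 T and NK cell marker genes, 4 had an FPKM of at least 1 in some library, Eomes and Tbx21 are listed at 0 in all 4, and Trbc1 and Trbc2 are not among the symbols used here. The summed FPKM of this list was 6.84 in control Ly6Clo, 4.78 in RBP-J-deficient Ly6Clo, 12.2 in control Ly6Chi and 12.3 in RBP-J-deficient Ly6Chi monocytes, and its part in the difference of Ccl5 was not tested.

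Ccl9 had a log2 ratio of Ly6Clo over Ly6Chi of -2.01 in control mice and -0.97 in deficient mice. Ccl6 had -0.87 in control mice and 0.22 in RBP-J-deficient mice, and the latter was -0.03 once the trend of the ratios with GC content was subtracted. The ratio of Ccl6 to Ccl9 FPKM was 9.70 in control Ly6Clo, 13.1 in RBP-J-deficient Ly6Clo, 4.35 in control Ly6Chi and 5.71 in RBP-J-deficient Ly6Chi monocytes. These adjacent genes thus stood in a higher ratio in both Ly6Clo libraries. Ccl3 was the only ligand with a positive ratio in both genotypes, 0.80 in control mice and 0.92 in deficient mice. Ccl4 had -0.74 and 0.49.

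**Figure D2:**
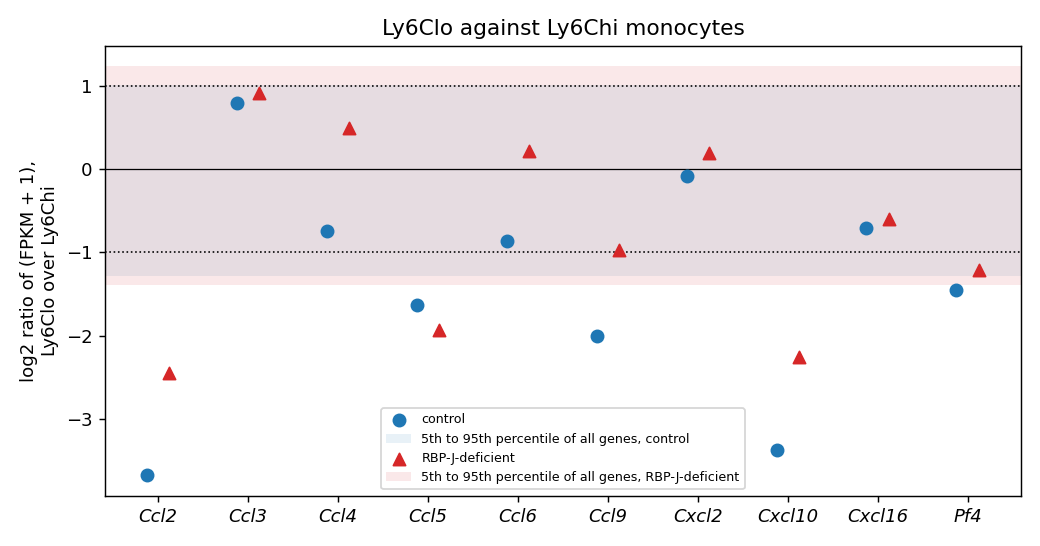
Log2 ratio of (FPKM + 1), Ly6Clo over Ly6Chi, on the vertical axis for each ligand gene, in control (blue circles) and RBP-J-deficient mice (red triangles). Dotted lines mark 2-fold, and the shaded bands span the 5th to the 95th percentile of all genes tested. Ccl2 and Cxcl10 lie farthest below 0 in both genotypes, and Ccl3 lies above 0 in both.

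Pf4 was lower in Ly6Clo monocytes of both genotypes, with log2 ratios of -1.45 in control mice and -1.21 in deficient mice. Pf4 is stored in platelet granules and is abundant in platelets, which adhere to blood monocytes. All 15 platelet marker genes had an FPKM of at least 1 in some library. Their summed FPKM was 134.1 in control Ly6Clo, 150.4 in RBP-J-deficient Ly6Clo, 407.5 in control Ly6Chi and 370.3 in RBP-J-deficient Ly6Chi monocytes. The list was thus high where Pf4 was high, with 12 of its 15 genes at least 2-fold lower in Ly6Clo monocytes of control mice and 10 in RBP-J-deficient mice. Ppbp, which encodes another platelet chemokine, had 55.8, 67.6, 154.4 and 153.1 in the order of libraries above. The ratio of Pf4 to Ppbp was 1.01 in control Ly6Clo, 0.760 in RBP-J-deficient Ly6Clo, 1.01 in control Ly6Chi and 0.787 in RBP-J-deficient Ly6Chi monocytes. It was the same in both control libraries to 3 digits. Gng11, a G protein gamma subunit gene, had 32.9, 47.1, 98.7 and 103, and Clec1b, the CLEC-2 receptor gene, had 8.53, 16.7, 24.7 and 34.2. Ppbp, Gng11 and Clec1b were among the 5 list genes that were higher, by any amount, in RBP-J-deficient than in control Ly6Clo monocytes. The other 10 were lower, and the median log2 ratio of the list was -0.35. In Ly6Chi monocytes 3 were higher and 12 lower, with a median of -0.53. The part of platelet RNA in the Pf4 values was not tested.

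The interferon-stimulated genes were set beside Cxcl10. In control mice 12 of the 18 were at least 2-fold lower in Ly6Clo monocytes, with a median log2 ratio of -1.28, and in RBP-J-deficient mice 8, with -0.93. None was higher in either genotype. Bst2, which encodes tetherin, had an FPKM of 149.4 in control Ly6Clo, 206.3 in RBP-J-deficient Ly6Clo, 275.7 in control Ly6Chi and 271.9 in RBP-J-deficient Ly6Chi monocytes. Irf7, an interferon regulatory factor gene, had 69.4, 23.5, 173.9 and 100.1. Cxcl10 and Bst2 were therefore lowest in the control Ly6Clo library, whereas Irf7 was lowest in the RBP-J-deficient Ly6Clo library.

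**Figure D3:**
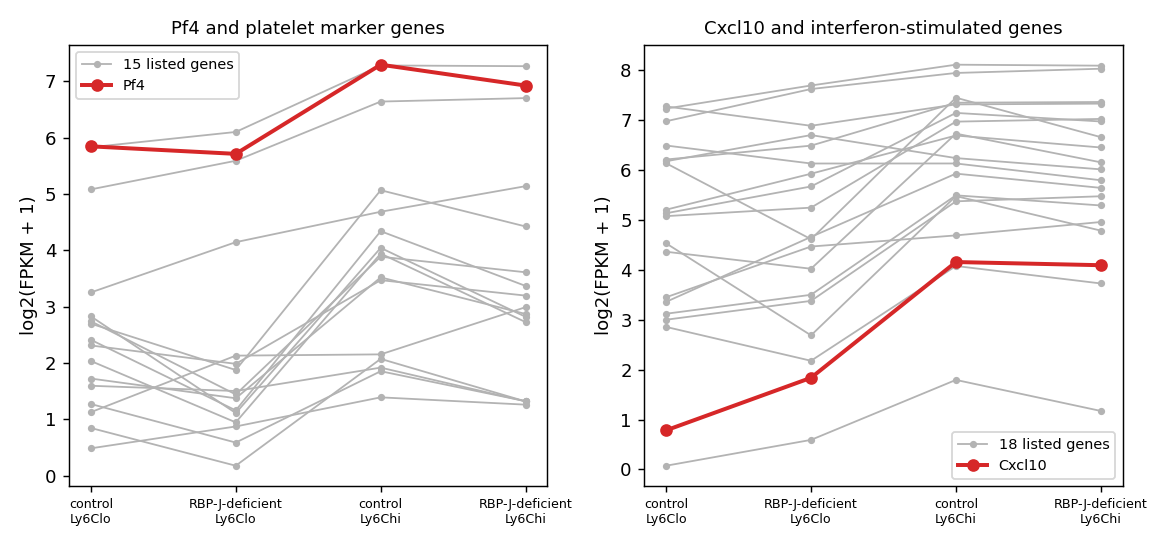
Log2(FPKM + 1) on the vertical axis across the 4 libraries, for Pf4 (red) among 15 platelet marker genes (grey, left) and for Cxcl10 (red) among 18 interferon-stimulated genes (grey, right). Lines join the values of 1 gene and imply no order of the libraries. Pf4 runs close to the highest grey line, Ppbp, and Cxcl10 and most grey lines on the right are higher in the Ly6Chi libraries.

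RBP-J-deficient and control libraries were compared within each subset. In Ly6Clo monocytes, Ccl2, Ccl6, Cxcl2 and Cxcl10 were at least 2-fold higher in the RBP-J-deficient library, which is 4 of the 10 ligand genes, against 8.97% of all genes tested. None was lower, against 11.1% of all genes. The median log2 ratio was 0.63 over the 10 ligands and 0.02 over all genes, and 0.59 over the 9 ligands other than Cxcl2, of which 3 were higher. In Ly6Chi monocytes none of the 10 was at least 2-fold higher or lower, against 2.65% and 4.56% of all genes, and the median was -0.11. The ratios of the 4 higher genes lay between 1.03 and 1.16, just past the 2-fold line at 1. With TPM only Ccl2 and Cxcl2 remained past it, as the median of all genes shifted by -0.24 and their split moved from 919 higher and 1134 lower to 537 and 1813, and none remained once the GC trend was subtracted. The ratio of Cxcl10 was 0.96 with TPM, and with the GC trend subtracted those of Ccl2, Cxcl2 and Cxcl10 were 0.70, 0.84 and 0.85, so that all stayed positive. B cell marker genes also differed between these 2 libraries, with 3 of 5 tested at least 2-fold lower in RBP-J-deficient Ly6Clo monocytes, 1 higher and a median log2 ratio of -2.01. Cd22, a B cell receptor-associated lectin gene, went from an FPKM of 12.9 to 0.563 and Cd79a, a B cell receptor subunit gene, from 9.02 to 1.13, whereas Cd79b, the other subunit gene, went from 41.9 to 100.2. The summed FPKM of the list was 71.4 in control Ly6Clo, 105.0 in RBP-J-deficient Ly6Clo, 26.9 in control Ly6Chi and 50.4 in RBP-J-deficient Ly6Chi monocytes, with Ighm and Ighd not among the symbols used here, and its part in the ligand values was not tested.

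Ccl6 had a log2 ratio of RBP-J-deficient over control of 1.03 in Ly6Clo monocytes, where its FPKM went from 845.8 to 1729, and of -0.06 in Ly6Chi monocytes. It is the only one of the 4 whose level is far from the pseudocount, and its Ly6Clo ratio was 0.73 with TPM and 0.72 with the GC trend subtracted. Ccl9 had 0.59 in Ly6Clo and -0.45 in Ly6Chi monocytes, and its Ly6Clo ratio was 0.19 with the GC trend subtracted. For both Ccl6 and Ccl9 the Ly6Clo value was positive and the Ly6Chi value negative. Ccl3 and Ccl5, which also encode CCR1 ligands, had positive values in Ly6Chi monocytes, at 0.14 and 0.57. Ccr1 itself had an FPKM of 0.445 in control Ly6Clo, 0.881 in RBP-J-deficient Ly6Clo, 26.7 in control Ly6Chi and 18.3 in RBP-J-deficient Ly6Chi monocytes.

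Ccl2 had log2 ratios of 1.05 in Ly6Clo and -0.19 in Ly6Chi monocytes, and Cxcl10 had 1.05 and -0.06. Both genes remained far below their Ly6Chi levels in the RBP-J-deficient Ly6Clo library. Because both Ly6Clo levels were low, the Ly6Clo ratio of Ccl2 was 1.97 with a pseudocount of 0.1 and 0.36 with a pseudocount of 5, and that of Cxcl10 was 1.70 and 0.40. Ly6Chi marker genes were also higher in this library, 8 of 12 by at least 2-fold, with a median log2 ratio of 1.19. Ly6c2, which encodes the Ly6C antigen used in the sort, had an FPKM of 10.9 in control Ly6Clo, 78.3 in RBP-J-deficient Ly6Clo, 2013 in control Ly6Chi and 1594 in RBP-J-deficient Ly6Chi monocytes. The part of this marker difference in the values of Ccl2 and Cxcl10 was not tested. In the same comparison 2 of the 18 interferon-stimulated genes were higher and 2 lower, with a median log2 ratio of 0.38. Cmpk2, a mitochondrial nucleotide kinase gene of this list, had -1.84.

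Cxcl2 encodes MIP-2, a CXCR2 ligand that attracts neutrophils. It is listed at 0 in control Ly6Clo monocytes and had an FPKM of 1.23 in RBP-J-deficient Ly6Clo, 0.0581 in control Ly6Chi and 0.948 in RBP-J-deficient Ly6Chi monocytes. Both RBP-J-deficient values were thus above both control values, at levels near an FPKM of 1. The difference on the log2(FPKM + 1) scale was 1.16 in Ly6Clo and 0.88 in Ly6Chi monocytes, which depends on the pseudocount, and no fold is given against a library listed at 0. As a rough guide to low values, FPKM multiplied by transcript length was set against the 2nd percentile of that product among nonzero genes with a single transcript. Cxcl2 stood at 2.80 times this value in control Ly6Chi, 45.7 times in RBP-J-deficient Ly6Clo and 39.5 times in RBP-J-deficient Ly6Chi monocytes, using its longest transcript. That transcript, of 2066 bases, spans nearly the whole gene, and a shorter one would give lower multiples. The GC content used for Cxcl2 and for Cxcl10 is also that of a transcript spanning nearly the whole gene. In Ly6Clo monocytes 2 of 17 NF-kappaB response genes tested were higher and 2 lower, with a median log2 ratio of 0.05. Nfkbia, the gene of the inhibitor IkappaB-alpha, had 0.26, Il1b, the interleukin-1beta gene, had 0.98, and Cd83, an activation marker gene, had 0.05. Zfp36, which encodes the mRNA-destabilising protein tristetraprolin and had the largest difference of this list, had -1.89. Of 13 immediate early genes, none was higher and 5 were lower, with a median of -0.75 and with Junb at -2.91.

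**Figure D4:**
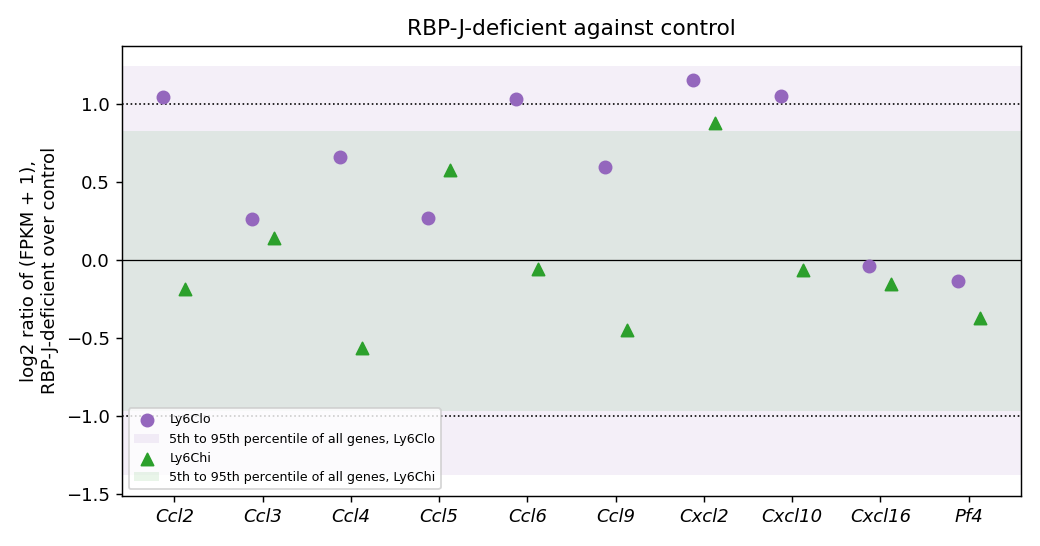
Difference between RBP-J-deficient and control mice, as a log2 ratio of (FPKM + 1), on the vertical axis for each ligand gene, in Ly6Clo (purple circles) and Ly6Chi monocytes (green triangles). Dotted lines mark 2-fold and the shaded bands span the 5th to the 95th percentile of all genes tested. All 10 Ly6Clo points lie inside the Ly6Clo band, and 4 of them lie above the upper dotted line. The point of Cxcl2 in Ly6Clo monocytes is set against a value listed at 0.

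The remaining ligand genes differed by less than 2-fold between the genotypes. Ccl4 had log2 ratios of 0.66 in Ly6Clo and -0.57 in Ly6Chi monocytes. Ccl5 had 0.27 and 0.57, and Ccl3 had 0.26 and 0.14, of which the Ly6Clo value of Ccl3 was -0.02 with TPM. Pf4 had -0.13 and -0.37. In the same comparisons 4 and 2 of the 15 platelet marker genes were at least 2-fold lower, and 1 and 0 were higher. Gp9, a subunit gene of the platelet glycoprotein Ib complex, had -1.72 in Ly6Clo monocytes, whereas Ppbp had 0.27. Cxcl16 encodes a membrane-anchored chemokine that binds CXCR6 and is shed by ADAM10 and ADAM17. Its FPKM was 0.755 in control Ly6Clo, 0.711 in RBP-J-deficient Ly6Clo, 1.87 in control Ly6Chi and 1.58 in RBP-J-deficient Ly6Chi monocytes, with genotype log2 ratios of -0.04 and -0.15. Adam10 had an FPKM of 59.1, 186.5, 51.4 and 63.8 in the same order, so that the RBP-J-deficient Ly6Clo library stood above the other 3, with a log2 ratio of 1.64. Adam17 had 34.2, 37.8, 33.1 and 26.2.

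**Figure D5:**
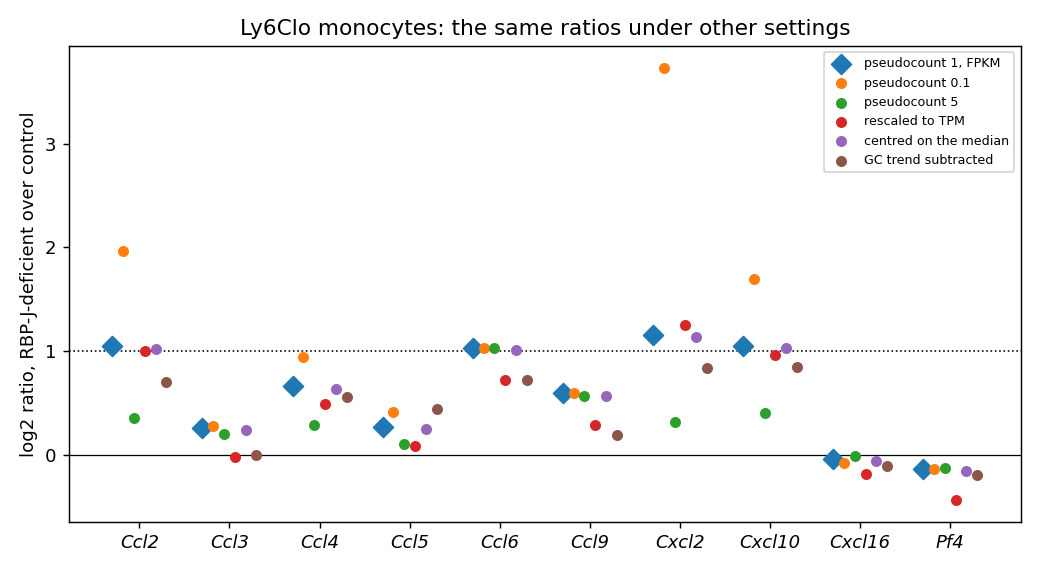
Log2 ratio of RBP-J-deficient over control Ly6Clo monocytes on the vertical axis for each ligand gene, with the pseudocount of 1 (large diamonds) and under 5 other settings (small circles). The dotted line marks 2-fold. The points of Ccl2, Cxcl2 and Cxcl10 spread widely with the pseudocount, those of Ccl6 do not, and with the GC trend subtracted all 10 lie below the dotted line.

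Of 27 further chemokine ligand genes, 4 had an FPKM of at least 1 in some library and 19 are listed at 0 in all 4, which was not read as absence. Besides Ppbp, only Ccl25, which encodes a CCR9 ligand, reached an FPKM of 5, with 5.86 in control Ly6Clo, 9.30 in RBP-J-deficient Ly6Clo, 3.75 in control Ly6Chi and 4.34 in RBP-J-deficient Ly6Chi monocytes. None of the 4 genes was at least 2-fold higher in RBP-J-deficient monocytes of either subset. The only one counted as lower, Ccl27a in Ly6Clo monocytes, had an FPKM of 1.09 in control and is listed at 0 in the deficient library, and it is named here after its values were seen.

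Of 23 chemokine receptor genes, 10 had an FPKM of at least 1 in some library. Ccr2, the CCL2 receptor gene, had a Ly6Clo log2 ratio of 2.98, beside 1.05 for its ligand. Cxcr4, which encodes the CXCL12 receptor, had an FPKM of 6.46 in control Ly6Clo, 1.74 in RBP-J-deficient Ly6Clo, 2.84 in control Ly6Chi and 2.50 in RBP-J-deficient Ly6Chi monocytes, a Ly6Clo log2 ratio of -1.44. Ccrl2, which encodes a nonsignalling chemerin-binding receptor, had 9.60, 17.3, 7.47 and 12.9, with both RBP-J-deficient values above both control values. Cx3cr1, which encodes the fractalkine receptor, had 88.1, 81.2, 71.7 and 60.3. Cxcr2, the receptor gene for CXCL2, had 1.97, 1.29, 5.11 and 3.20, and like Cx3cr1 it differed by less than 2-fold between the genotypes in both subsets.

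For the ligand genes that reached an FPKM of 10 and spanned at least 2 on the log2 scale, the genes with the nearest profile were sought among 5649 genes. Profiles were log2(FPKM + 1) in the 4 libraries, centred, and likeness was their Euclidean distance. The nearest genes to Ccl2 were Slpi, which encodes a leukocyte protease inhibitor, at 0.153, Cxcl10 at 0.264 and Ndrg1 at 0.313. Those nearest to Cxcl10 were Ndrg1 at 0.163, Slpi at 0.223 and Ccl2 at 0.264. Ccl2 and Cxcl10, on different chromosomes, were thus each among the 3 nearest of the other. Ccl9 had Prdx4, a peroxiredoxin gene, at 0.0196 and Fbxw17 at 0.157. With 4 libraries these are descriptions of shape only.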

How the data were processed

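The authors deposited FPKM values of all genes for all 6 pairs of the 4 libraries, with fold changes, p-values and q-values that were not used here. Paired-end reads came from an Illumina HiSeq instrument. The submitters' processing notes name CASAVA 1.8, TopHat2 2.1.0, Cufflinks 2.2.1 and the build mm10, which is GRCm38. Rows of 1 symbol were summed (2 symbols). Library depth is unknown, so no interval is given.

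Log2 ratios of (FPKM + 1) were computed for genes that reached an FPKM of 1 in any library. With 1 library per group no p-value was computed. All 10 ligands are named. List genes were named by an FPKM of at least 5 (ligands, receptors and shedding proteases), or as the 3 highest in a list and the largest 2-fold genotype difference, from which some are shown, and a few genes are not reported here. The ligands, the gene lists and the naming rule were chosen with earlier results of these data known. Alternatives were pseudocounts of 0.1 and 5, other filters and folds, TPM, median centring, the deposited status, and subtraction of a lowess trend (fraction 0.3, 3 iterations) on transcript GC content (longest GENCODE transcript), known for 9722 of the 10240 genes. The ratio and GC steps were run on simulated data, in which the changes were well past 2-fold and in genes of higher level. That run does not bear on ratios near the 2-fold line or on low values. Gene positions are from GENCODE M21 and promoters from RefSeq. Python 3.11.15, numpy 2.4.6, pandas 2.3.3, statsmodels 0.14.6 and matplotlib 3.10.9 were used.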

Additional observations from a re-analysis of the deposited data

Results flagged for a closer look

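For 5 ligand genes the single log2 ratio of RBP-J-deficient over control was positive in Ly6Clo and negative in Ly6Chi monocytes. It was 1.05 and -0.19 for Ccl2, 0.66 and -0.57 for Ccl4, 1.03 and -0.059 for Ccl6, 0.59 and -0.45 for Ccl9, and 1.05 and -0.064 for Cxcl10. For 3 genes the ratio of Ly6Clo over Ly6Chi was negative in control and positive in RBP-J-deficient mice, at -0.74 and 0.49 for Ccl4, -0.87 and 0.22 for Ccl6, and -0.082 and 0.19 for Cxcl2, of which the positive values of Ccl6 and Cxcl2 were -0.03 and -0.06 with the GC trend subtracted. These differences between subsets and between genotypes were not tested, since each group has 1 library, and both sets of ratios share the same 4 libraries. The FPKM of Ccl4 lay between 1.46 and 3.09, near the pseudocount of 1.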

How the results depend on the processing

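No paired analysis was possible because each group has 1 library. Over 64 results and 503 alternative values, 430 were classed as the same and 73 as moved. Of the 303 values of single ligands, 3 changed sign. A ratio was classed as the same if it kept its sign and its side of the 2-fold line, however far it went. Counts were classed by their relative change. With a pseudocount of 0.1 the Ly6Clo genotype ratio of Cxcl2 went from 1.16 to 3.73 and was classed as the same. With TPM that of Cxcl10 went from 1.05 to 0.96 and was classed as moved.

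Counts are given as ligands higher in RBP-J-deficient Ly6Clo monocytes (4) and all genes higher and lower there (919 and 1134). With a pseudocount of 0.1 the lower genes were 1747. With a pseudocount of 5 they were 1 ligand, 511 and 458 genes, with TPM 2 ligands, 537 and 1813 genes, and with the GC trend subtracted 0 ligands. A filter that asked for an FPKM of 1 in each of the 4 libraries kept 6 ligands and 8188 genes, of which 1 ligand was higher, with 757 and 850 genes. At 1.5-fold there were 2360 and 2250 genes, and at the study's thresholds of 5.7 and 0.2 there were 0 ligands, 28 and 69 genes. Here and below, the study's thresholds are its folds alone, without the p-value that it also required.

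In Ly6Chi monocytes (0 ligands higher, 271 and 467 genes) a pseudocount of 0.1 gave 1 ligand, 592 and 933 genes, and a pseudocount of 5 gave 73 and 101 genes. The all-library filter gave 164 and 247 of 8188, TPM gave 1 ligand and 708 lower genes, 1.5-fold gave 1 ligand, 1119 and 1469 genes, and the study's thresholds gave 16 and 16.

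For Ly6Clo over Ly6Chi in control mice (5 ligands lower, 533 and 794 genes) a pseudocount of 0.1 gave 877 higher genes, and a pseudocount of 5 gave 242 and 365 with a ligand median of -0.85. The all-library filter gave 3 lower ligands of 6 and 472 lower genes of 8188, 1.5-fold gave 1 higher and 8 lower ligands with 1402 and 1657 genes, and the study's thresholds gave 2 lower ligands with 77 and 129 genes.

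In RBP-J-deficient mice (4 ligands lower, 861 and 1084 genes) a pseudocount of 0.1 gave 1656 lower genes and a ligand median of -1.01, and a pseudocount of 5 gave 412 and 400. The all-library filter gave 2 lower ligands of 6 and 677 lower genes of 8188, 1.5-fold gave 1 higher ligand with 2119 and 2187 genes, and the study's thresholds gave 1 lower ligand with 31 and 84 genes. The filter and fold counts follow from fewer genes or another threshold, and for the other settings the cause was not tested. Low levels limit Ccl2, Ccl4, Ccl5, Cxcl2, Cxcl10 and Cxcl16, since in some or all libraries the pseudocount is near their size.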
